A study of Mus musculus with 24 samples.

Results

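Among the 23420 genes measured in mouse bone marrow-derived macrophages, 108 carry a symbol that begins with Gpr and a digit, with P2ry, or with Lpar and a digit. Of these, 43 reached a level of at least 1 CPM (read counts scaled to library size) in at least 1 averaged column of the deposited tables and are described here. The other 65 stayed under 1 CPM in every column, and 19 of them were listed at 0 throughout. The members were thus chosen by their highest level in any group, so that their being detectable is no result. Just inside the limit stood Gpr153, Gpr171, Gpr97 and Gpr56, with highest columns of 1.86, 1.94, 2.16 and 2.20 CPM. Just outside it stood Gpr64, P2ry10 and Gpr39, with 0.876, 0.779 and 0.633 CPM. Of the 43 members, 32 reached 1 CPM in every column, while Gpr116 and Gpr153 reached it in 1 column only, that of restimulated wild-type cells.

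P2ry genes encode receptors for extracellular nucleotides, which cells release when they are damaged, stretched or activated. ADP is read by the products of P2ry1, P2ry12 and P2ry13, UDP by that of P2ry6, UDP-glucose by that of P2ry14, and ATP and UTP by that of P2ry2. Lpar genes encode receptors for lysophosphatidic acid, a signalling lipid with a single fatty chain, and the Gpr symbols were given to G protein-coupled receptors in the order of their discovery, before most ligands were known. In macrophages and microglia such receptors steer movement towards dying cells, sense acid, and couple to G proteins that raise or lower cyclic AMP and calcium. The 43 members comprised 6 nucleotide receptors, 4 lysophosphatidic acid receptors and 4 receptors for lysophosphatidylserine, other lysophospholipids or protons. A further 4 read other lipids and metabolites, 6 belong to the adhesion family, and 11 are other orphans. The last 8 carry a Gpr symbol but form a group of genes for multi-pass proteins of the Golgi, lysosome or other inner membranes. Gpr137b-ps, annotated as a transcribed pseudogene, was placed among them. The name of a receptor family thus covers this group only by symbol.

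The promoter windows of P2ry1, P2ry12 and P2ry13 are printed because, within the nucleotide receptors, these genes moved in opposite directions with interleukin-4 (IL-4): P2ry1 rose, and the neighbouring P2ry12 and P2ry13 fell. Each window runs 5′ to 3′ on the gene's own strand, from 250 bases before to 50 after a RefSeq start site in GRCm38.p6. Capitals mark the motif GAGGAA, a sequence that PU.1, the main macrophage ETS factor, binds. Other forms of its site were not searched.
P2ry1, chr3:61002535-61002834, plus strand: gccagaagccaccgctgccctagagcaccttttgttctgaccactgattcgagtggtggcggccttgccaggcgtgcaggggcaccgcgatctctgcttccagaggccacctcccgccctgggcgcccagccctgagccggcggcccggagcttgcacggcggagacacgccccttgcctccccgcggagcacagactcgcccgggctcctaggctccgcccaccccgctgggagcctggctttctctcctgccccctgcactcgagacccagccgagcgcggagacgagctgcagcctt
P2ry12, chr3:59262936-59263235, minus strand: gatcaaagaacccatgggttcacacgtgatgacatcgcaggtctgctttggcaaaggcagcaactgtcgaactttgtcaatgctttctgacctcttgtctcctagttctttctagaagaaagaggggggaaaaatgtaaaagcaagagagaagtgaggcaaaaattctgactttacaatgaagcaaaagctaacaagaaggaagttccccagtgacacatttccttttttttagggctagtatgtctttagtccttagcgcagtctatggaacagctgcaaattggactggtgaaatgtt
P2ry13, chr3:59210833-59211132, minus strand: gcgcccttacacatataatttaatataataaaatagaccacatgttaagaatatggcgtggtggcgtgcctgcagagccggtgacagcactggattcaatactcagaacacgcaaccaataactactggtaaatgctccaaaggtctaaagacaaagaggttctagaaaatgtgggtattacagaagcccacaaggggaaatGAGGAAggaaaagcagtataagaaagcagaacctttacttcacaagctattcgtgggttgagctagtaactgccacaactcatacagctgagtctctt
The P2ry1 window was 70.7% G and C with 25 CpG pairs, and 91.4% of all 32851 windows in the table had less G and C. The P2ry12 and P2ry13 windows were each 42.3% G and C, with 4 and 6 CpG pairs, and only 14.9% of windows had less. The median window held 52.7% and 7 CpG pairs. GAGGAA was searched on both strands and found once in the P2ry13 window and in neither of the others, and 28.3% of all windows held it. The palindrome TTCNNNNGAA, of the form that STAT6, the main transcription factor downstream of IL-4, prefers, was in none of these windows, against 7.0% of all windows. Of the 35 members with a window in the table, 13 had GAGGAA and 2, Gpr85 and Lpar1, had the palindrome. These matches describe letters in windows whose start sites may not be those used in macrophages.

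Poly-A RNA of 24 samples was sequenced, 2 for each of 12 groups, from C57BL/6 mice labelled as male and aged 3 months, whose marrow was differentiated for 6 days with M-CSF. In the antagonist experiment cells of no stated genotype received, for 24 h, IL-4 plus GW9662, IL-4 with the vehicle, GW9662 alone, or the vehicle of DMSO and ethanol. GW9662 blocks the ligand pocket of PPARγ, the lipid-sensing nuclear receptor the series is about, and its dose is not given in the sources used here. In the memory experiment, cells labelled as Pparg knockout and wild-type (Wt) cells were each read in 4 states: after a first 3 h of IL-4, a day after the end of a 24 h IL-4 treatment (washed out), after the same pretreatment and a second 3 h of IL-4 (restimulated), and unstimulated. The IL-4 dose is labelled as 20 ng per µl. The labels name no Cre driver, no deleted exon and no animal or culture behind a sample, so a p-value here reflects only how far these samples spread, which may be technical. The deposited tables give the mean of both libraries of a group, and the values of the 2 libraries, here called deeper and shallower, were recovered from it as whole reads.

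Gene reads per library numbered 15915668 to 27721804 in the first of these experiments and 5444284 to 16401755 in the second, so that 3 reads were worth 0.105 to 0.181 and 0.183 to 0.526 CPM. All 7 macrophage markers were read in every library. Their sum was 12151 to 14650 CPM in libraries labelled knockout, against 30518 to 43239 CPM in wild-type ones, and 17496 to 17806 CPM in the antagonist libraries with IL-4, against 37272 to 38678 CPM in those without. Most of both differences lay in Lyz2, a lysozyme gene singled out after its values were seen, which read 11.8 to 44.2 CPM in libraries labelled knockout, against 21966 to 30727 CPM in wild-type ones. The other 6 markers summed to 12136 to 14609 CPM in libraries labelled knockout, against 8552 to 12512 CPM in wild-type ones, and to 10921 to 11397 CPM with IL-4 for 24 h, against 15263 to 15842 CPM without, and the part of these shifts in the results was not tested. Markers of T and NK cells reached at most 0.351 CPM and those of B cells at most 0.290 CPM. The deeper restimulated wild-type library stood apart: its 5 fibroblast markers summed to 1070.72 CPM, against at most 37.4 CPM in any other library, the highest of these being its own partner. The test gave each group a weight, and that of the restimulated wild-type group was 0.0907 and that of the IL-4 24 h group 0.217, against 0.821 to 2.62 elsewhere. Pparg itself, the targeted gene, read 19.9 to 45.5 CPM in the libraries labelled knockout, against 19.0 to 34.8 CPM in wild-type libraries. Unstimulated it had 22.3 and 19.9 CPM in the libraries labelled knockout, against 24.2 and 21.9 CPM in wild-type ones, which overlap, and without knowledge of the deleted part such reads check nothing. Libraries also fell into 2 counting kinds, which differ in reads over genes with near-identical copies. Ubb, a polyubiquitin gene, read 288.78 to 468.35 CPM in one kind and 2.81 to 5.62 CPM in the other, and in the memory experiment all libraries labelled knockout and 1 wild-type washed-out library were of the lower kind.

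Levels below are CPM, which are not scaled to gene length and are compared only within a gene, and library values are given with the deeper library first. Log2 ratios and standard errors (SE) are on the log2(CPM + 1) scale, which understates changes of low genes. A member rose or fell where limma, fitted over all genes of the table, gave a Benjamini-Hochberg (BH) adjusted p under 0.05. Each table's test covered 41 of the members, all but Gpr116 and Gpr153 in the antagonist table and all but Gpr153 and Gpr97 in the memory table. Over all comparisons 37 members were called at least once, and Gpr108, Gpr116, Gpr125, Gpr137, Gpr153 and Gpr56 were not called in any comparison read here. In bulk RNA, fewer cells of a type and less RNA per cell cannot be told apart.

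**Figure D1:**
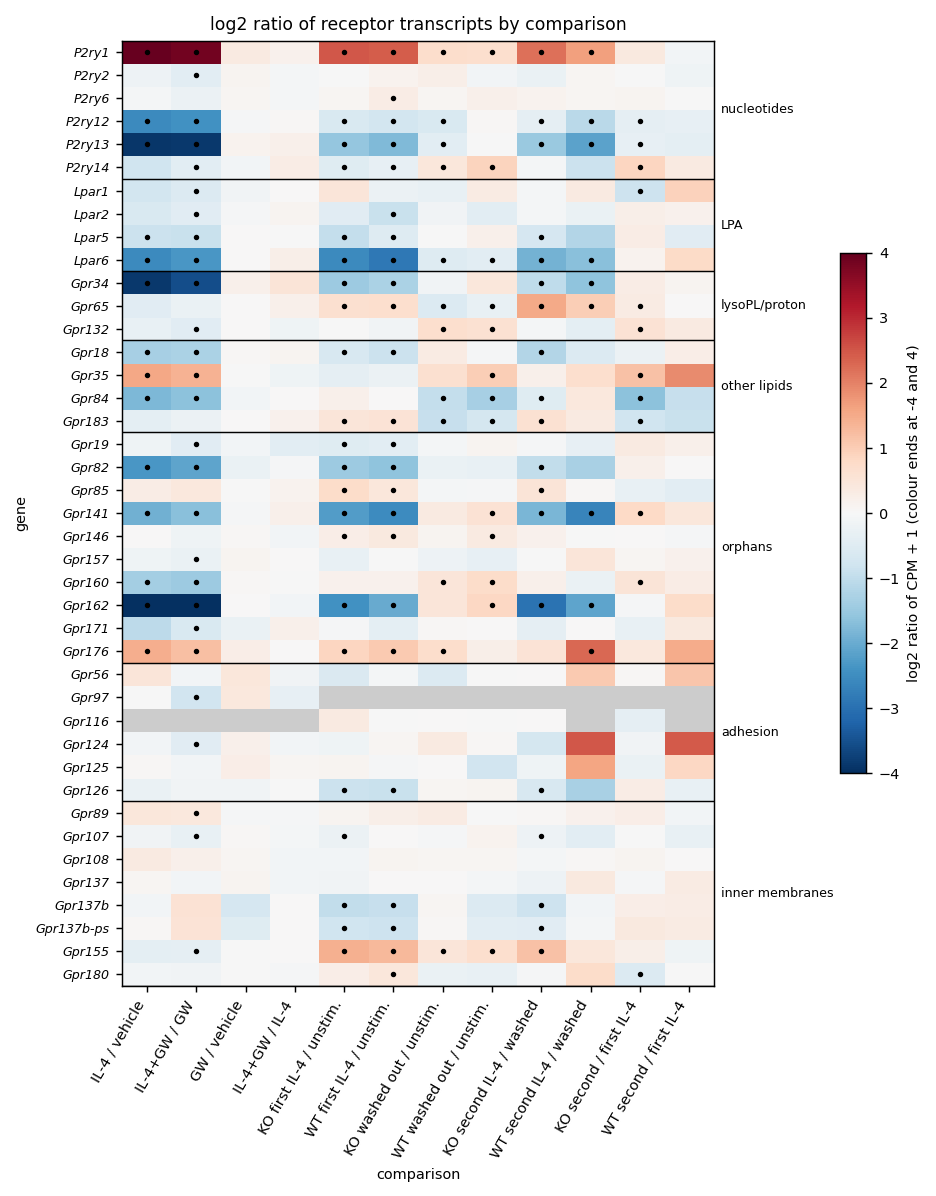
Log2 ratios of 41 members (rows, ordered by class) in the comparisons of the report (columns), on the log2(CPM + 1) scale, with colour for the ratio and the scale ending at -4 and 4. Black dots mark BH adjusted p under 0.05 by limma, and grey cells were not in the test or not read. P2ry1 carries a dot and a rise colour in every column that sets cells in IL-4 against cells without it, and Lpar6, P2ry13, Gpr162 and Gpr141 carry a dot and a fall colour in the same columns.

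A day of IL-4 lowered more of these genes than it raised. Of the 41 members tested, 4 rose and 11 fell against vehicle, where 17.8% of all genes tested were called, 9.58% higher and 8.19% lower. The median log2 ratio was -0.22 over the members and -0.02 over all genes. The largest rise was that of P2ry1 and the largest falls those of Gpr162, P2ry13 and Gpr34. None of the 8 genes of the inner-membrane group and none of the 5 adhesion receptors tested were called. The most abundant of the inner-membrane group, both linked to the Golgi, were Gpr107, with 129 and 157 CPM with IL-4 and 170 and 145 CPM with vehicle, and Gpr108, with 138 and 191 CPM with IL-4 and 135 and 118 CPM with vehicle.

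Among the nucleotide receptors, the ADP receptors moved apart. P2ry1, whose product couples to Gq and calcium, had 51.0 and 41.3 CPM with IL-4, against 1.74 and 1.94 CPM with vehicle. It rose by a log2 ratio of 4.04 (SE 0.27, limma BH adjusted p = 0.00013), with the IL-4 libraries far above the others. P2ry13, a Gi-coupled ADP receptor, had 1.56 and 0.664 CPM with IL-4, against 34.9 and 25.3 CPM with vehicle (log2 ratio -3.89, SE 0.34, limma BH adjusted p = 0.00037). P2ry12, the Gi-coupled ADP receptor that guides microglial processes and is the target of clopidogrel, had 1.38 and 1.51 CPM with IL-4, against 13.7 and 12.95 CPM with vehicle (log2 ratio -2.55, SE 0.27, limma BH adjusted p = 0.00086). Neither pair overlapped. P2ry14, the UDP-glucose receptor, read 21.0 and 12.2 CPM with IL-4 and 31.2 and 26.3 CPM with vehicle, and its log2 ratio of -0.80 did not pass (limma BH adjusted p = 0.073). The UDP receptor P2ry6 had 518 and 768 CPM with IL-4 and 720 and 624 CPM with vehicle, which overlap, and P2ry2 had 11.7 and 12.8 CPM with IL-4 and 15.3 and 13.5 CPM with vehicle. P2ry12, P2ry13, P2ry14 and Gpr171 lie in a row on chromosome 3, with gaps of 5389, 54273 and 12033 bases between neighbours, inside Med12l on the opposite strand. Strand use in counting is not given in the sources used here, so reads from Med12l and from these genes cannot be told apart where they overlap.

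The lysophosphatidic acid receptors that moved fell. Lpar6, whose product is known for its part in hair growth in humans, had 24.3 and 14.8 CPM with IL-4, against 114 and 115 CPM with vehicle (log2 ratio -2.53, SE 0.19, limma BH adjusted p = 0.00022). Lpar5 had 18.7 and 28.3 CPM with IL-4, against 44.3 and 41.0 CPM with vehicle (log2 ratio -0.86, SE 0.24, limma BH adjusted p = 0.046). Both fell below every vehicle library, though the IL-4 libraries differed from each other, and Lpar6 lies inside Rb1 on the opposite strand. Lpar1 and Lpar2 read at most 1.57 CPM in either group and were not called.

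Gpr34, the lysophosphatidylserine receptor, fell to 1.29 and 0.784 CPM with IL-4, against 29.6 and 27.2 CPM with vehicle (log2 ratio -3.86, SE 0.32, limma BH adjusted p = 0.00031). Gpr82, an orphan gene 20504 bases away from it on chromosome X, fell with it. It had 0 and 0.0603 CPM with IL-4, which are 0 reads and 1 read, against 4.36 and 3.94 CPM with vehicle (limma BH adjusted p = 0.00073). Gpr34 and Gpr82 both lie inside Cask on the opposite strand, so that reads from Cask cannot be told apart from theirs either. The proton sensor Gpr65 and Gpr132 did not pass. Gpr65 had 95.6 and 66.6 CPM with IL-4 and 114 and 108 CPM with vehicle, and Gpr132, a receptor linked to oxidised fatty acids and lysophospholipids, had 39.8 and 53.9 CPM with IL-4 and 58.2 and 55.6 CPM with vehicle.

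Of the receptors of other lipids and metabolites, Gpr84 and Gpr18 fell and Gpr35 rose. Gpr84, the medium-chain fatty acid receptor that inflammatory signals raise, had 1.29 and 2.41 CPM with IL-4, against 9.28 and 8.01 CPM with vehicle (log2 ratio -1.78, SE 0.30, limma BH adjusted p = 0.0058). Gpr18, whose ligand is debated, had 1.20 and 0.724 CPM with IL-4, against 4.19 and 3.65 CPM with vehicle (log2 ratio -1.34, SE 0.25, limma BH adjusted p = 0.010). Gpr35, a receptor linked to the tryptophan metabolite kynurenic acid, had 14.4 and 17.4 CPM with IL-4, against 5.34 and 4.24 CPM with vehicle (log2 ratio 1.54, SE 0.26, limma BH adjusted p = 0.0059). All 3 kept their IL-4 libraries clear of the vehicle libraries. Gpr183, the oxysterol receptor that positions immune cells in lymphoid tissue, had 25.5 and 21.7 CPM with IL-4 and 30.4 and 31.5 CPM with vehicle and did not pass (log2 ratio -0.38, limma BH adjusted p = 0.23). Gpr18 and Gpr183 both lie inside Ubac2 on the opposite strand, where the same limit on reads holds.

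The largest change of all members was in an orphan. Gpr162, a conserved receptor-like gene best known from brain, had 2.07 and 3.32 CPM with IL-4, against 119 and 104 CPM with vehicle (log2 ratio -4.95, SE 0.23, limma BH adjusted p = 3.3e-05). Gpr141, an orphan of blood cells, had 11.6 and 8.51 CPM with IL-4, against 43.1 and 37.7 CPM with vehicle (log2 ratio -1.92, SE 0.21, limma BH adjusted p = 0.00092). Gpr160, also an orphan, had 6.35 and 6.40 CPM with IL-4, against 18.3 and 17.7 CPM with vehicle (log2 ratio -1.37, SE 0.31, limma BH adjusted p = 0.022). In these 3 genes the lowest vehicle library was well above the highest IL-4 library. Gpr176, an orphan known from the circadian clock of the mouse brain, rose to 6.26 and 6.70 CPM with IL-4, against 1.78 and 1.71 CPM with vehicle (log2 ratio 1.45, SE 0.33, limma BH adjusted p = 0.022). The most abundant orphan, Gpr146, had 129 and 156 CPM with IL-4 and 149 and 135 CPM with vehicle, which overlap. Gpr146 lies inside 3110082I17Rik on the opposite strand, where the same limit on reads holds. Other members overlap an opposite-strand gene in part, and the limit holds over the shared stretch. Among them are P2ry1 (992 bases), Gpr65 (1913 bases) and Gpr84 (843 bases), and also Gpr141, Gpr155 and Gpr176.

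With 2 libraries a group, some of these calls were lost when a single library was left out and the group weights were kept. Without the deeper IL-4 library 10 of the 15 calls stood, without the shallower one 9, and without either vehicle library 13. P2ry1, P2ry12, P2ry13, Lpar6, Gpr34, Gpr82, Gpr141 and Gpr162 stood in all 4 refits. Lpar5 was lost in all 4 of them, at BH adjusted p of 0.073 to 0.28 by limma, Gpr160 and Gpr176 in 3 each, Gpr18 in both without an IL-4 library, and Gpr84 and Gpr35 in 1 each. Of the dendritic cell markers, Itgax moved with IL-4, at a mean of 1900.91 CPM with IL-4, against 26.0 and 24.3 CPM with vehicle, while Flt3, Zbtb46 and Xcr1 stayed between 0.0460 and 2.18 CPM in the IL-4 and vehicle libraries. The neutrophil markers summed to 127 and 118 CPM with IL-4, against 185 and 241 CPM with vehicle, and the endothelial markers to 24.6 and 20.1 CPM with IL-4, against 14.4 and 10.5 CPM with vehicle. The part of these lists in the results was not tested.

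**Figure D2:**
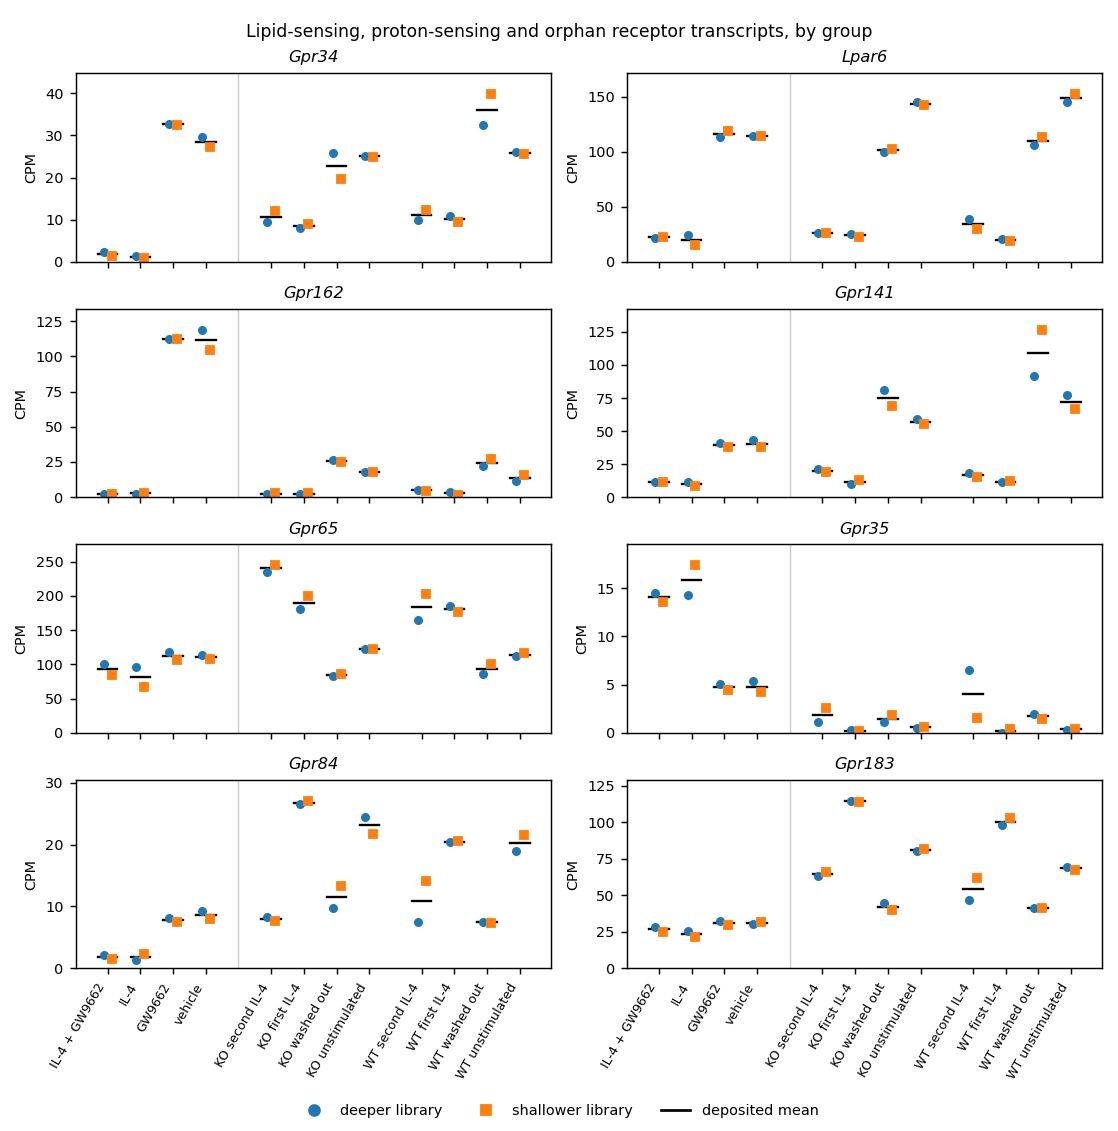
CPM of lipid, proton and orphan receptor genes in each library (points, 2 per group; lines mark the deposited mean), with groups on the horizontal axis and a CPM axis of its own for each gene. Circles are deeper and squares shallower libraries. Gpr162 stands at 104 to 119 CPM in the antagonist libraries without IL-4 and at 2.07 to 3.32 CPM in those with it, and Gpr84 and Gpr183 are lower after washout than unstimulated in both genotypes.

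GW9662 changed none of these genes past the threshold. Between GW9662 and vehicle 0 of 41 members and 0% of all genes were called, with 273 genes and 1 member at an unadjusted p under 0.05. That member was P2ry1, with 2.99 and 2.31 CPM under GW9662, against 1.74 and 1.94 CPM under vehicle (log2 ratio 0.36, SE 0.13, limma BH adjusted p = 0.99), and Gpr56 was called once the counting kind entered as a term. Between IL-4 plus GW9662 and IL-4 alone 0 of 41 members and 0% of all genes were called by limma. Only 2 of all 11519 genes tested had an unadjusted p under 0.05, so that 0 members with one is no result about the members. The members' log2 ratios ran from -0.42 for Gpr19 to 0.51 for Gpr34. P2ry1 had 52.9 and 50.9 CPM with IL-4 plus GW9662 and 51.0 and 41.3 CPM with IL-4 alone, which overlap. Gpr162 had 2.62 and 2.13 CPM with both agents and 2.07 and 3.32 CPM with IL-4 alone, which overlap as well. A test of the IL-4 change with GW9662 less the change without it called 0 of 40 members by limma and 0% of all genes. Here 0 members and 17 of all genes had an unadjusted p under 0.05. In all 3 of these tests limma-voom also called 0 members.

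Against GW9662 alone, IL-4 plus GW9662 raised 5 and lowered 23 of 41 members, where 50% of all genes tested were called, 25.5% higher and 24.5% lower. The median log2 ratio was -0.36 over the members and 0.02 over all genes. The weights of these groups were 1.43 and 2.62. Gpr162 had 2.62 and 2.13 CPM with IL-4 plus GW9662, against 112 and 112 CPM with GW9662 alone (log2 ratio -5.07, SE 0.10, limma BH adjusted p = 8.5e-08). P2ry1 had 52.9 and 50.9 CPM, against 2.99 and 2.31 CPM with GW9662 alone (log2 ratio 3.86, SE 0.12, limma BH adjusted p = 4.4e-07). Gpr82 had 0 reads in both libraries with IL-4 plus GW9662, which allows up to 0.133 and 0.145 CPM, against 3.27 and 3.39 CPM with GW9662 alone. Members that fell here and were not called for IL-4 alone included P2ry2 (log2 ratio -0.42), P2ry14 (-0.41), Gpr132 (-0.46), Gpr155 (-0.36), Gpr19 (-0.47) and Gpr107 (-0.28), and also the orphan Gpr157, and Gpr89, a Golgi ion channel protein, rose by 0.44. Without group weights 20 calls stood, those on P2ry14, Gpr132, Gpr155, Gpr107 and Gpr157 being lost, while P2ry14 and Gpr89 were then called for IL-4 alone, also with 20 calls. Gpr157 was lost in all 4 refits without 1 library, Gpr107 in 3, P2ry14 and Gpr155 in 2 and Gpr19 in 1. Whether those members differ between the contrasts was part of the test with 0 calls above.

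A first exposure to IL-4 moved many of these receptors within 3 h, the largest log2 ratios being a rise of P2ry1 and falls of Lpar6, Gpr141 and Gpr162. Of 41 members, 7 rose and 16 fell in cells labelled knockout, where 40.3% of all genes were called, 19.6% higher and 20.7% lower. In wild-type cells 9 rose and 16 fell, where 46.5% were called, 23.1% higher and 23.4% lower. Of the calls, 22 had the same direction in both genotypes, which is 95.7% of those in cells labelled knockout and 88.0% of those in wild-type cells. The share of calls alike over all genes was not counted, so this overlap is no result about the members. Gpr107 was called only in cells labelled knockout, and Gpr180, Lpar2 and P2ry6 only in wild-type cells. The test of the difference between the genotypes' responses called 0 of 41 members by limma, where 0.0332% of genes were called. In it 4 members and 1399 of all 12044 genes had an unadjusted p under 0.05, and limma-voom called 0 members. Of the 3 endothelial markers, Pecam1 moved in the same contrast, with 23.2 and 22.6 CPM after IL-4 in cells labelled knockout, against 0.913 and 0.583 CPM unstimulated, and 35.6 and 28.7 CPM in wild-type cells, against 2.19 and 0.883 CPM unstimulated. Kdr was lower after IL-4, at 0.446 to 0.868 CPM, against 4.49 to 5.36 CPM unstimulated, and Cdh5 stayed at 0.351 to 0.972 CPM. The part of these markers in the results was not tested.

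P2ry1 rose to 32.5 and 32.5 CPM in cells labelled knockout, against 4.75 and 5.25 CPM unstimulated (log2 ratio 2.48, SE 0.15, limma BH adjusted p = 5.2e-10). In wild-type cells it had 29.2 and 29.9 CPM, against 5.84 and 3.64 CPM unstimulated (log2 ratio 2.44, SE 0.14, limma BH adjusted p = 4.0e-10). The stimulated libraries of both genotypes lay close together and far above the others. P2ry13 had 25.4 and 26.0 CPM after IL-4 in cells labelled knockout, against 84.1 and 71.8 CPM unstimulated, and 17.9 and 19.5 CPM after IL-4 in wild-type cells, against 61.6 and 71.8 CPM unstimulated. Its log2 ratios were -1.56 (SE 0.11) and -1.78 (SE 0.10). P2ry12 fell by 0.60 and 0.73 on the log2 scale, with 26.7 and 26.2 CPM after IL-4 in wild-type cells, against 43.6 and 45.2 CPM unstimulated. P2ry14 also fell, by 0.48 and 0.34 on the log2 scale. P2ry6 rose in wild-type cells, at a mean of 474 CPM that could not be separated into libraries, against 363 and 404 CPM unstimulated (log2 ratio 0.31, limma BH adjusted p = 0.0027).

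Lpar6 had the steepest fall on the log2(CPM + 1) scale. It had 25.1 and 22.6 CPM after IL-4 in cells labelled knockout, against 145 and 142 CPM unstimulated (log2 ratio -2.54, SE 0.08, limma BH adjusted p = 1.5e-13), and 20.4 and 19.0 CPM in wild-type cells, against 146 and 152 CPM unstimulated (log2 ratio -2.86, SE 0.08, limma BH adjusted p = 2.0e-14). Gpr141 had 9.72 and 12.98 CPM after IL-4 in cells labelled knockout, against 58.8 and 55.7 CPM unstimulated, and 11.7 and 11.95 CPM in wild-type cells, against 77.6 and 66.8 CPM unstimulated. No library with IL-4 came near an unstimulated one in either gene. Gpr162 had 2.36 and 2.81 CPM after IL-4 in cells labelled knockout, against 17.9 and 18.1 CPM unstimulated, and 3.39 and 1.93 CPM in wild-type cells, against 11.7 and 15.6 CPM unstimulated. Gpr34 had 8.05 and 8.95 CPM after IL-4 in cells labelled knockout, against 25.2 and 24.9 CPM unstimulated, and 10.9 and 9.35 CPM in wild-type cells, against 26.1 and 25.6 CPM unstimulated. Their log2 ratios were -2.41 and -2.02 for Gpr162 and -1.46 and -1.28 for Gpr34.

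Some members rose at 3 h and were not called for IL-4 alone at 24 h, where the group weight was 0.217. The experiments share no library, and the difference between them was not tested. Gpr65, the proton sensor also known as TDAG8, rose to 180 and 200 CPM in cells labelled knockout, against 123 and 122 CPM unstimulated, and to 186 and 177 CPM in wild-type cells, against 112 and 116 CPM unstimulated (log2 ratios 0.63 and 0.66, SE 0.07 each). Gpr183 rose to 114 and 114 CPM in cells labelled knockout, against 80.2 and 81.8 CPM unstimulated, and to 97.7 and 103 CPM in wild-type cells, against 69.3 and 67.3 CPM unstimulated (log2 ratios 0.49 and 0.55, SE 0.07 each). Gpr155, a lysosomal cholesterol sensor, rose to 73.3 and 78.8 CPM in cells labelled knockout, against 28.6 and 27.0 CPM unstimulated, and to 65.3 and 61.5 CPM in wild-type cells, against 26.7 and 24.2 CPM unstimulated (log2 ratios 1.42 and 1.29). At 24 h Gpr155 read 31.0 and 24.6 CPM with IL-4 and 37.7 and 36.1 CPM with vehicle and was not called, while it fell with IL-4 plus GW9662 against GW9662, as given above. Of the 15 members called at 24 h and the 25 called in wild-type cells at 3 h, 12 were called in both, 11 of them in the same direction, or 73.3% and 44.0% of each list. Such an overlap was not counted over all genes.

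Other members were also called at 3 h. Gpr126, an adhesion receptor needed for myelin formation in the mouse, had 7.92 and 9.12 CPM after IL-4 in cells labelled knockout, against 17.1 and 15.2 CPM unstimulated, and 6.95 and 6.46 CPM in wild-type cells, against 13.6 and 12.8 CPM unstimulated. Gpr176 rose by log2 ratios of 0.86 and 1.04, Gpr85, an orphan best known from brain, by 0.74 and 0.45, and Gpr146 by 0.26 and 0.38. Lpar5 fell by 0.96 and 0.52, Gpr19, an orphan, by 0.50 and 0.42, and Gpr18 by 0.64 and 0.85 on the log2 scale. Gpr107 fell in cells labelled knockout, with 124 and 123 CPM after IL-4, against 144 and 145 CPM unstimulated (log2 ratio -0.23, SE 0.07, limma BH adjusted p = 0.011), and had 126 and 116 CPM after IL-4 in wild-type cells, against 117 and 125 CPM unstimulated. Gpr108 had 84.8 to 110 CPM in every memory library. Gpr84 was not called, with 20.4 and 20.5 CPM after IL-4 and 19.0 and 21.5 CPM unstimulated in wild-type cells, which overlap. Leaving out 1 library at a time left 19 to 24 calls in cells labelled knockout and 19 to 23 in wild-type cells. Gpr19 was lost in 3 of 4 such refits in cells labelled knockout and in all 4 in wild-type cells, and Gpr18, Gpr180, Gpr85, Gpr107, Gpr146, Gpr176, Lpar5, P2ry14 and P2ry6 were each lost at least once in a genotype. Without group weights 17 calls stood in cells labelled knockout and 18 in wild-type cells. Gpr18, Gpr19, Gpr176 and P2ry14 were then lost in both genotypes.

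A day after IL-4 was washed out, several receptors differed from the unstimulated level, not all in the direction called at 3 h. Gpr65 and Gpr183, which rose at 3 h, were lower after washout, and P2ry14, which fell at 3 h, was higher. Of 41 members, 7 were higher and 6 lower in cells labelled knockout, where 17.6% of all genes were called, 8.5% higher and 9.1% lower. In wild-type cells 10 were higher and 4 lower, where 13.2% were called, 6.76% higher and 6.4% lower. The same direction held for 10 calls in both genotypes, or 76.9% and 71.4% of each list. Among them Gpr132, Gpr160, Gpr155, P2ry1 and P2ry14 were higher and Gpr84, Gpr183, Gpr65 and Lpar6 lower. Calls alike over all genes were not counted for this step either. The dendritic cell markers moved with washout too, summing to 384 and 411 CPM in cells labelled knockout, against 65.4 and 69.8 CPM unstimulated, and to 211 and 196 CPM in wild-type cells, against 48.7 and 46.9 CPM unstimulated. Nearly all of this was Itgax, while Flt3, Zbtb46 and Xcr1 were each at most 0.602 CPM in these libraries, and their part in the results was not tested.

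Gpr84 had 9.69 and 13.2 CPM after washout in cells labelled knockout, against 24.5 and 21.7 CPM unstimulated, and 7.53 and 7.37 CPM in wild-type cells, against 19.0 and 21.5 CPM unstimulated (log2 ratios -0.96 and -1.33). Gpr183 had 44.5 and 40.0 CPM after washout in cells labelled knockout, against 80.2 and 81.8 CPM unstimulated, and 41.4 and 41.6 CPM in wild-type cells, against 69.3 and 67.3 CPM unstimulated (log2 ratios -0.93 and -0.71). P2ry14 had 29.9 and 31.1 CPM after washout in cells labelled knockout, against 22.5 and 21.7 CPM unstimulated, and 34.5 and 47.7 CPM in wild-type cells, against 20.0 and 22.6 CPM unstimulated (log2 ratios 0.45 and 0.90).

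P2ry1 was still raised after washout, at 8.85 and 8.45 CPM in cells labelled knockout, against 4.75 and 5.25 CPM unstimulated, and at 7.83 and 8.17 CPM in wild-type cells, against 5.84 and 3.64 CPM unstimulated (log2 ratios 0.69 and 0.67). Lpar6 was still lowered, at 99.8 and 103 CPM in cells labelled knockout, against 145 and 142 CPM unstimulated, and at 106 and 114 CPM in wild-type cells, against 146 and 152 CPM unstimulated (log2 ratios -0.50 and -0.44). Both lay much nearer to the unstimulated level than after 3 h of IL-4. Gpr162 and Gpr141, which fall with IL-4, were higher after washout in wild-type cells. Gpr162 had 22.4 and 26.9 CPM, against 11.7 and 15.6 CPM unstimulated (log2 ratio 0.82, SE 0.24, limma BH adjusted p = 0.031), and Gpr141 had 91.8 and 127 CPM, against 77.6 and 66.8 CPM unstimulated (log2 ratio 0.58, SE 0.16, limma BH adjusted p = 0.025). Neither passed in cells labelled knockout, nor was the difference between genotypes at this step tested. P2ry12 and P2ry13 were lower after washout in cells labelled knockout, by 0.60 and 0.42 on the log2 scale, and in wild-type cells had 41.1 and 50.8 CPM and 59.3 and 72.4 CPM, overlapping the unstimulated libraries.

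Calls at this step were sensitive to single libraries and to the weights. In wild-type cells 8 stood without the shallower washed-out library, which is of the lower counting kind, 8 without the deeper unstimulated library, 7 without group weights and 7 with the counting kind as a term. The 13 calls in cells labelled knockout became 7 without group weights and 9 to 11 with 1 library left out. There P2ry13, P2ry14, Gpr160 and Gpr176 were each lost in 3 of these 4 refits and Gpr155 in 1, and all of them, with Gpr132, were lost without group weights. Gpr84 and Gpr183 stood in every refit without 1 library, in both genotypes, while the wild-type calls on P2ry1, Lpar6, Gpr65, Gpr132, Gpr141, Gpr160 and Gpr162 were each lost at least once.

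A second 3 h of IL-4 again raised P2ry1 and lowered Lpar6, P2ry13 and Gpr141. Against washed-out cells, 5 members rose and 15 fell of 41 in cells labelled knockout, where 32.3% of all genes were called, 17.5% higher and 14.9% lower. In wild-type cells 3 rose and 6 fell of 40, where 6.55% were called, 3.38% higher and 3.17% lower. Gpr116 was not read there, since it is a member through that group alone. P2ry1, Lpar6, P2ry13, P2ry12, Gpr141, Gpr162, Gpr34 and Gpr65 were called in both genotypes in the same direction. Calls alike over all genes were not counted here. The wild-type call on Gpr65 was lost without the shallower restimulated library. With no filter on low values, the wild-type calls on Gpr65, P2ry1, P2ry12, Gpr34 and Gpr162 were lost. In cells labelled knockout the call on P2ry12 was lost without group weights, and without the deeper washed-out or the shallower restimulated library. P2ry1 had 44.8 and 41.8 CPM after restimulation in cells labelled knockout, against 8.85 and 8.45 CPM washed out (log2 ratio 2.20, SE 0.15, limma BH adjusted p = 6.8e-09). In wild-type cells it had 25.2 and 29.6 CPM, against 7.83 and 8.17 CPM washed out (log2 ratio 1.65, SE 0.44, limma BH adjusted p = 0.034). Without either restimulated wild-type library the wild-type calls on P2ry1, P2ry12, Gpr34 and Gpr162 were lost, with 4 members called without the deeper and 5 without the shallower one, against 21 without group weights.

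Set against the first exposure, the second gave different levels of some receptors in cells labelled knockout, with 7 members higher and 6 lower of 41, where 20% of all genes were called, 11.3% higher and 8.73% lower. In wild-type cells 0 of 40 were called by limma, where 0.639% of all genes were, and 3 by limma-voom. An unadjusted p under 0.05 was found for 6 of these members and for 1086 of all 12044 genes. Gpr84 in cells labelled knockout had 8.26 and 7.58 CPM at the second exposure, against 26.5 and 27.0 CPM at the first (log2 ratio -1.64, SE 0.14, limma BH adjusted p = 6.7e-07), and Gpr183 had 63.4 and 66.1 CPM at the second, against 114 and 114 CPM at the first (log2 ratio -0.81, SE 0.08, limma BH adjusted p = 1.3e-06). P2ry14 had 28.4 and 29.7 CPM at the second, against 15.0 and 16.1 CPM at the first (log2 ratio 0.86, SE 0.12, limma BH adjusted p = 8.4e-05). None of these pairs overlapped, and for each of them the washed-out level had moved the same way. These genes and Gpr141 stood in every refit without 1 library, while 8 members were called without the shallower first-exposure library and 6 without group weights. In wild-type cells Gpr84 had 7.55 and 14.1 CPM at the second exposure, against 20.4 and 20.5 CPM at the first, with no call under the weight of 0.0907. Without group weights and without the deeper restimulated library, an alternative chosen after seeing the data, 14 members were called there, Gpr84, Gpr183 and P2ry14 among them.

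Whether the response itself differed between exposures was tested as the restimulated minus washed-out change less the first change. Of 41 members, 2 were called in cells labelled knockout, both with a higher second response, where 1.19% of all genes were called and 0.764% were higher. Gpr65 had 236 and 245 CPM after restimulation, against 82.4 and 85.8 CPM washed out, and its response exceeded the first by a log2 difference of 0.88 (SE 0.10, limma BH adjusted p = 0.00023). Lpar6 had 26.4 and 26.3 CPM after restimulation, against 99.8 and 103 CPM washed out, and fell less steeply than at the first exposure, by a log2 difference of 0.64 (SE 0.11, limma BH adjusted p = 0.0085). Without group weights neither passed, and Lpar6 was also lost without the shallower first-exposure library, which left 1 call. In wild-type cells 0 of 40 members were called by limma, where 0.0249% of genes were, and 0 by limma-voom. An unadjusted p under 0.05 was found for 3 of these members and for 757 of all 12044 genes.

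Between genotypes the count of members called varied with the state, as did the share of all genes called. Of 41 members, cells labelled knockout had 4 higher and 3 lower than wild-type cells when unstimulated, where 16.1% of all genes were called, 6.63% higher and 9.46% lower. After the first exposure 3 were higher and 4 lower, where 8.25% were called, 1.35% higher and 6.9% lower. After washout 0 were higher and 2 lower, where 2.69% were called, 1.14% higher and 1.55% lower. In restimulated cells limma called 0 of 40, where 0.0166% were called, and limma-voom called 1. An unadjusted p under 0.05 was found for 5 of these members and for 1129 of all 12044 genes. The calls rested on single libraries: 2 were left when unstimulated without the shallower library labelled knockout or the deeper wild-type one, 2 to 4 after the first exposure with any 1 library left out, and 0 after washout without the shallower library labelled knockout.

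The largest of these differences followed the counting kind. Gpr137b, a lysosomal membrane protein, had 52.6 and 48.4 CPM in unstimulated cells labelled knockout, against 126 and 120 CPM in wild-type cells (log2 ratio -1.27, SE 0.16, limma BH adjusted p = 5.9e-05). Gpr137b-ps, whose symbol marks it as a pseudogene copy and 29.5% of whose 50-base words are also in other genes' transcripts, had 50.7 and 51.8 CPM in cells labelled knockout, against 133 and 127 CPM in wild-type cells (log2 ratio -1.32, SE 0.14, limma BH adjusted p = 2.1e-05). Within the 4 groups that hold 1 library of each kind, the library of the higher kind exceeded the other by 1.10 to 1.54 on the log2 scale for Gpr137b and by 0.91 to 1.26 for Gpr137b-ps. Genotype and counting kind coincide in 3 of the 4 states, so that they cannot be told apart there, and with the kind as a term 0 members were called in unstimulated and first-exposed cells. The 3 h falls of both genes, by 0.99 and 0.94 for Gpr137b in cells labelled knockout and in wild-type cells, are within 1 kind.

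**Figure D3:**
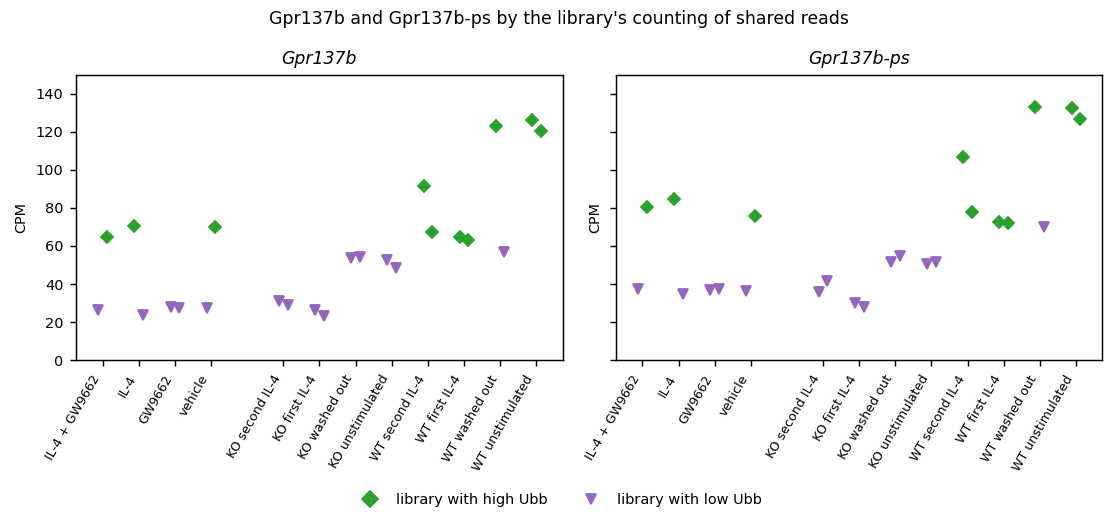
CPM of Gpr137b and Gpr137b-ps in each library (points, 2 per group), with groups on the horizontal axis. Diamonds are libraries of the kind with high Ubb and triangles those with low Ubb. In the antagonist groups the libraries of the higher kind stand at 64.6 to 84.5 CPM and those of the lower kind at 23.5 to 37.4 CPM, whatever the treatment.

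Gpr19 was lower in cells labelled knockout in 3 states, with 3.19 and 2.45 CPM, against 5.11 and 4.86 CPM in wild-type cells when unstimulated (log2 ratio -0.65, SE 0.16, limma BH adjusted p = 0.0097). After the first exposure it had 1.81 and 1.58 CPM in cells labelled knockout, against 3.65 and 3.28 CPM in wild-type cells (log2 ratio -0.73, limma BH adjusted p = 0.0095). After washout it had 2.51 and 2.68 CPM, against 5.02 and 5.90 CPM in wild-type cells (log2 ratio -0.84, limma BH adjusted p = 0.045). The libraries of the genotypes did not overlap in any state, restimulation included, with 2.56 and 2.39 CPM against 4.32 and 3.95 CPM. The calls ended without group weights, with the counting kind as a term, and in each state on leaving out at least 2 of its 4 libraries. After washout the call ended on leaving out any of the 4 libraries. It also ended there with limma-voom, with a pseudocount of 0.5 CPM and with no filter on low values. Smaller differences were those of P2ry13 (log2 ratio 0.44) and Lpar6 (0.26), both higher in cells labelled knockout after the first exposure, and of Gpr183 (0.24), P2ry6 (0.25), Gpr107 (0.26) and Gpr146 (0.22), higher when unstimulated. Each of these calls was lost on leaving out at least 1 library.

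Of the members, 8 had their highest level of all libraries in the one with the fibroblast markers. Gpr116 and Gpr153 are members through the restimulated wild-type group alone, so that their peak there is no result. The share of all genes that peak in this library was not counted. In the restimulated wild-type libraries Gpr124, an adhesion receptor of brain vessels, had 42.6 and 1.97 CPM, with 0.555 to 1.83 CPM in the other memory libraries. Gpr116, an adhesion receptor of lung epithelium, had 23.4 and 1.43 CPM there, with at most 0.417 CPM in the others. Gpr125 had 12.3 and 2.08 CPM, Lpar1 had 6.33 and 0.439 CPM, Gpr153 had 3.71 and 0 CPM, Gpr56 had 3.41 and 0.987 CPM, and Gpr157 had 31.4 and 9.76 CPM. Gpr176 reached 40.6 CPM in the deeper library and 6.03 CPM in its partner, against 2.21 and 2.84 CPM washed out, and its call in that contrast (log2 ratio 2.29, SE 0.62, limma BH adjusted p = 0.038) ended without the deeper library. Gpr176 in cells labelled knockout had 6.75 and 6.78 CPM restimulated, against 3.95 and 4.65 CPM washed out, and was not called. The part of fibroblast RNA in these values was not tested.

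**Figure D4:**
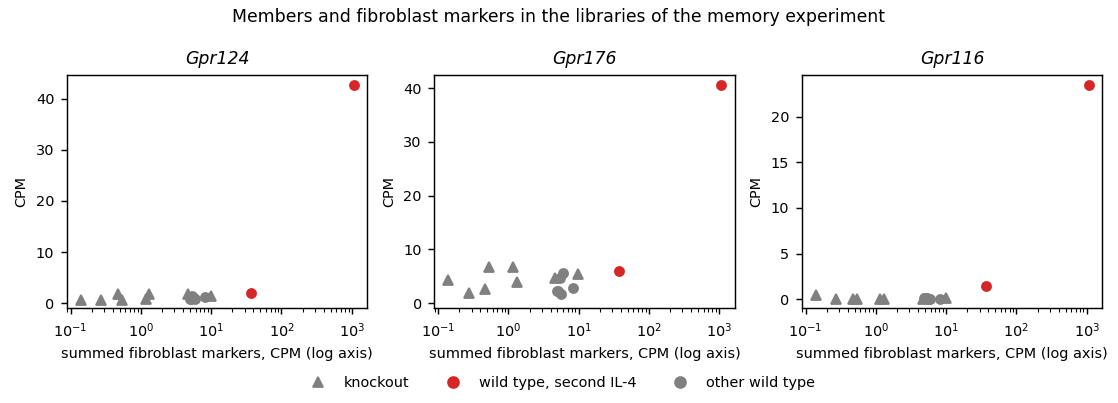
CPM of Gpr124, Gpr176 and Gpr116 (vertical axes, linear) against the summed CPM of the 5 fibroblast markers (horizontal axes, log) in each memory library. Triangles are libraries labelled knockout, red circles restimulated wild-type libraries and grey circles other wild-type libraries. The deeper restimulated wild-type library alone reaches 1070.72 CPM of fibroblast markers, and all 3 genes are highest in it. Gpr116 is a member through the restimulated wild-type group alone.

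Lists of genes around the receptors were read beside them, and the share of all genes called stands beside each count. Of 23 genes for enzymes, channels and other receptors of extracellular purines, 1 of the 17 tested rose and 2 fell after 24 h of IL-4, where 17.8% of all genes were called. Adora2b, the low-affinity adenosine receptor, rose to a mean of 21.3 CPM, against 2.20 CPM with vehicle (log2 ratio 2.80, SE 0.22, limma BH adjusted p = 0.00026). Entpd1, the CD39 enzyme that removes ATP and ADP, fell to 95.3 CPM, against 281 CPM (log2 ratio -1.55, SE 0.23, limma BH adjusted p = 0.0035), and P2rx7, the ATP-gated channel, fell by 0.62 on the log2 scale. After washout 7 of 14 rose and 0 fell in wild-type cells, where 13.2% of all genes were called, with a median log2 ratio of 0.47 over the list and -0.01 over all genes. Entpd1 was then at 422 CPM, against 229 CPM unstimulated (log2 ratio 0.88), and Acpp, a phosphatase that makes adenosine, at 23.5 CPM, against 6.84 CPM (log2 ratio 1.63). In cells labelled knockout 6 of 14 rose and 1 fell, where 17.6% of all genes were called.

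Of 29 genes for enzymes, transporters and other receptors of lysophospholipids and oxysterols, 4 of 23 tested rose and 3 fell after 24 h of IL-4, where 17.8% of all genes were called. S1pr1, the sphingosine-1-phosphate receptor, fell to a mean of 17.7 CPM, against 123 CPM with vehicle (log2 ratio -2.73), and Lpcat2 and Pla2g7, which make and break platelet-activating factor, fell by 1.66 and 1.51 on the log2 scale. At 3 h in wild-type cells 6 of 24 rose and 8 fell, where 46.5% of all genes were called. Ch25h, which makes the precursor of the Gpr183 ligand, rose to a mean of 68.8 CPM, against 3.75 CPM unstimulated (log2 ratio 3.88, SE 0.15, limma BH adjusted p = 2.4e-12), and in cells labelled knockout to 107 CPM, against 6.11 CPM (log2 ratio 3.93). After washout it was lower than in unstimulated cells in both genotypes, at 1.84 CPM, against 6.11 CPM in cells labelled knockout, and at 0.755 CPM, against 3.75 CPM in wild-type cells. Ptafr, the receptor for platelet-activating factor, fell by 2.40 on the log2 scale at 3 h in wild-type cells. Of 33 genes for G proteins, their regulators, arrestins and receptor kinases, 4 of 32 tested rose and 4 fell at 24 h, where 17.8% of all genes were called, among them Gnb4 (log2 ratio 1.68), a beta subunit, and Gng2 (-2.02), a gamma subunit.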

How the data were processed

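The members and gene lists were chosen with earlier results of these data known. Reads were handled by the authors with TopHat2 2.0.7, Cufflinks 2.0.2 and build mm10, per the submitters' processing notes, and the counter and its strand setting are not given in the sources used here. The deposited signal is a mean CPM of the libraries of each group for 23420 genes, and columns summed to 951943 to 1054527. Whole reads of both libraries were recovered for 170553 of 171808 values above 0 (99.3%), and the remaining 1255 entered the fit once as the authors' mean with a weight of 2. Libraries are named deeper and shallower, since the columns carry no replicate number. The test was limma 3.58.1 (R 4.3.3) with a trend and a weight for each group, on log2(CPM + 1), over 11519 genes of the antagonist table and 12044 of the memory table whose columns averaged 0.5 CPM or more, in 16 comparisons and 4 differences of responses. It was also run on simulated data whose groups all had the same spread, unlike the groups here. Those data held no outlying library and no counting kinds. Tables and figures used Python 3.11.15, numpy 2.4.6, pandas 2.3.3 and matplotlib 3.10.9. By rule, library values are given for members called with an absolute log2 ratio of at least 1 and for the 2 highest of each class, at most 25. Values of other members are given outside this rule. Among these are P2ry2, P2ry14, Gpr126, Gpr19, Gpr124, Gpr116, Gpr125, Lpar1, Gpr153, Gpr56 and Gpr157. Promoter sequences are from RefSeq, GRCm38.p6. Alternatives were no group weights, limma-voom on the recovered reads, a pseudocount of 0.5 CPM, no filter on low values, the authors' means, the counting kind as a term, and leaving out each library. Limits from 3 reads and low counts cover counting error only. Results of 1 member, which stays in the counts, are not reported here.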

Additional observations from a re-analysis of the deposited data

Results flagged for a closer look

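In cells labelled knockout the second response to IL-4 differed from the first for 2 members, by the test of that difference. Gpr65, the proton sensor, had a second response higher by 0.88 on the log2 scale (SE 0.10, limma BH adjusted p = 0.00023), and its restimulated libraries, at 236 and 245 CPM, were above all others of the memory experiment. Lpar6, the lysophosphatidic acid receptor, fell less at the second exposure, by a difference of 0.64 (SE 0.11, limma BH adjusted p = 0.0085). The restimulated level of Lpar6, 26.4 and 26.3 CPM, lay close to that of the first exposure, 25.1 and 22.6 CPM, while the levels before it were 99.8 and 103 CPM washed out and 145 and 142 CPM unstimulated. Neither call stood without group weights. The difference of this difference between genotypes was not tested.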

How the results depend on the processing

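For the 25 members picked by the rule for library values, no log2 ratio reversed under any alternative in the comparisons where they were called. Comparisons without a call and other members were not checked for this. Without group weights members called became 7 of the 14 after washout in wild-type cells, 7 of the 13 in cells labelled knockout, 21 in place of 9 at wild-type restimulation, and 5 in place of 0 (wild type) and 6 in place of 13 (labelled knockout) for the second against the first exposure. At the first exposure they became 18 of the 25 in wild-type cells and 17 of the 23 in cells labelled knockout. At restimulation in cells labelled knockout they became 14 of the 20. For IL-4 at 24 h they became 20 in place of 15, and for IL-4 in GW9662 20 of the 28. Between genotypes they became 2 when unstimulated, 2 after the first exposure, 0 after washout and 10 restimulated, and for the difference of exposures 1 in wild-type cells and 0 in cells labelled knockout. With limma-voom 3 were called for the second against the first exposure in wild-type cells, and 4 washed out and 1 restimulated between genotypes. A pseudocount of 0.5 CPM gave 1 between washed-out genotypes. No filter gave 0 there and 3 at wild-type restimulation. With the counting kind as a term, Gpr56 was the 1 member called for GW9662, 7 stood after washout and 5 for the second against the first exposure in wild-type cells, and 0 between unstimulated and 0 between first-exposed genotypes. Without weights and without the deeper restimulated wild-type library, chosen after seeing the data, 23 were called at wild-type restimulation, 14 for the second against the first exposure, 7 for their difference, and 7 washed out and 13 restimulated between genotypes. The cause was not tested for any of these.

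Leaving out 1 library at a time gave 9 to 13 for IL-4 at 24 h, 0 to 0 for GW9662 with and without IL-4, 20 to 27 for IL-4 in GW9662, 19 to 24 (labelled knockout) and 19 to 23 (wild type) for the first exposure, 9 to 11 and 8 to 12 for washout, 15 to 17 and 4 to 9 for restimulation, and 8 to 10 and 0 to 1 for the second against the first. The ranges were 2 to 6, 2 to 4, 0 to 3 and 0 to 1 between genotypes (unstimulated, first, washed out, restimulated). For differences of responses they were 1 to 2 (labelled knockout) and 0 to 3 (wild type) between exposures, and 0 to 0 with GW9662 and between genotypes. In such refits the lone library keeps the weight that its group had in the full fit. That weight was 0.0907 for restimulated wild-type cells and 0.217 for IL-4 at 24 h. For calls lost in those groups, reliance on the library left out and this weight cannot be told apart. No paired analysis was possible because the averaged columns carry no replicate numbers.

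With 2 libraries a group, and weights of 0.217 and 0.0907 in the IL-4 24 h and restimulated wild-type groups, a member without a call there is not shown to be unaffected. For memory libraries, 3 reads are worth 0.183 to 0.526 CPM, which limits Gpr97, Gpr116, Gpr153 and other low members.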
